A study of Mus musculus with 2 samples.

Results

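Splicing factor genes of 6 families were examined for N4-acetylcytidine (ac4C), an acetyl mark on cytidine in RNA, in the mouse uterus. The genes were chosen by symbol alone, as protein-coding genes on chromosomes 1 to 19 of the RefSeq table named as heterogeneous nuclear ribonucleoproteins (hnRNP), serine and arginine rich splicing factors (SR), SR repetitive matrix proteins (SRRM), subunits of SF3A and SF3B (SF3), small nuclear ribonucleoproteins (snRNP) or pre-mRNA processing factors (PRPF). This gave 76 of 20665 genes, with 20 hnRNP, 11 SR, 4 SRRM, 9 SF3, 19 snRNP and 13 PRPF genes. Hnrnph2 lies on the X chromosome and was outside the choice, and Hnrnpa1l2-ps2 is listed as protein-coding although its symbol marks a pseudogene.

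Both libraries came from the same tissue, the entire uterus of wild-type animals at day 4 of gestation. One library held polyA RNA fragments pulled down for ac4C and 1 held input RNA, so there was 1 library in each group, no replicate check and no test across samples. No transgene or agent is named in the labels, and how many animals gave the RNA is not given in the sources used here. The values are those of 1 list of 21192 peaks, in which each peak has a fold enrichment over background at its summit, calculated by the authors' peak caller. Whether the input library served as that background is not given in the sources used here, so a fold enrichment may be over input or over the coverage of the pulled-down library itself. All 5 stromal, 6 epithelial, 5 myometrial and 2 endothelial marker genes held a peak, as did 1 of 2 leukocyte genes (Cd68, with none in Ptprc). The share of all protein-coding genes with a peak was 31.7%. With so few marker genes the Wilson intervals of the shares were wide, 34.2 to 100% for endothelial and 9.45 to 90.5% for leukocyte genes. These counts do not measure how much of each cell type was present. The RNA was that of a whole organ, in which fewer cells of a type and less RNA per cell cannot be told apart.

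Splicing removes introns from precursor mRNA. The U1 snRNP pairs with the 5′ splice site, the U2 snRNP with its SF3A and SF3B parts holds the branch point, and the U4/U6 and U5 particles then join, brought to the active form by PRPF proteins and helicases. Proteins of the SR family bind exons and mostly favour their inclusion, whereas hnRNP proteins coat nascent RNA and often oppose it, and many genes of both families tune their own mRNA by splicing.

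No genome sequence was used, so the only letters that can be set under the peaks are those of tabulated start windows, which run from 250 bases before to 50 bases after an annotated start, and of microRNA genes. Start windows were found for 67 of the 76 genes (RefSeq, GRCm38.p6), and peaks of 4 genes reached into one. The last 30 bases of these windows, bases 21 to 50 after the start, are shown on the transcribed strand with the bases inside the peak in capitals. All 4 lie on the minus strand, at chr11:116853045-116853074, chr13:58128507-58128536, chr7:25754710-25754739 and chr7:27195711-27195740 in the order shown.
Srsf2: tccgtcaggttcGGGTGCTCTGCGGCGGCC
Hnrnpa0: taggggagcggaggtggcggccgcggcGGC
Hnrnpul1: tggcccccccttttcccccttcgcCTCCTG
Snrpa: ctcccttagcacgcgGGTTGGAGAAGCGGG

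Their overlap with the peak was 18, 3, 6 and 15 bases in that order, so each of these peaks began within 50 bases of a listed start and reached into the gene from there. One microRNA gene lay inside a peak, Mir5125 in the last peak of Srrm2. Its mature sequence on the plus strand, at chr17:23823339-23823358, lay 245 bp from the summit and is shown with its seed, bases 2 to 8, in capitals.
mmu-miR-5125: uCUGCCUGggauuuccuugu

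Of the 76 splicing factor genes, 43 held the summit of at least 1 peak in their span (56.6%, 95% Wilson interval 45.4 to 67.1%), against 31.7% of all protein-coding genes of these chromosomes. Together they held 98 peaks. The share was highest in SF3, hnRNP and SRRM genes and lowest in snRNP and PRPF genes. A peak was found in 7 of 9 SF3 genes (77.8%, 45.3 to 93.7%) and in 15 of 20 hnRNP genes (75%, 53.1 to 88.8%). Among the SRRM genes it was 3 of 4 (75%, 30.1 to 95.4%) and among the SR genes 7 of 11 (63.6%, 35.4 to 84.8%). Only 7 of 19 snRNP genes (36.8%, 19.1 to 59.0%) and 4 of 13 PRPF genes (30.8%, 12.7 to 57.6%) held one, a share near that of all genes. The intervals of all 6 families overlapped one another. No filter on RNA level was used, so all genes may include those with little or no RNA in the uterus. The part of RNA level in these shares was not tested.

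**Figure D1:**
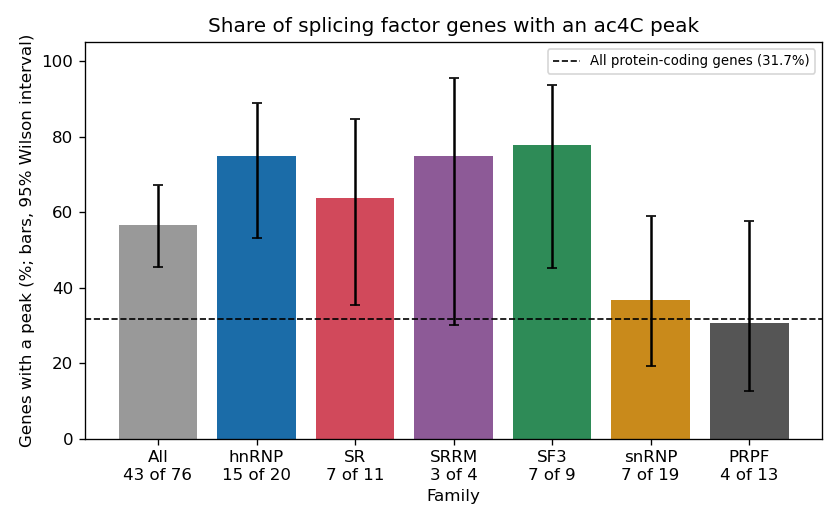
Share of genes with the summit of an ac4C peak in their span, in percent, for all 76 splicing factor genes and for each family. Bars run from 0, error bars are 95% Wilson intervals, and the dashed line marks the 31.7% of all protein-coding genes; the hnRNP, SR and SF3 intervals lie above that line and the SRRM, snRNP and PRPF intervals cross it.

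Splicing factor genes with a peak were not longer than those without one. Their median spans were 13.7 and 14.5 kb, whereas over all protein-coding genes they were 26.5 kb with a peak and 14.5 kb without. Among splicing factor genes with a span between 7.65 and 27.3 kb, the interquartile range of the 76, 20 of 38 held a peak (52.6%), against 31.8% of all genes in that range. The background at the highest peak, in fragments, did differ. It had a median of 4.81 (interquartile range 2.51 to 9.37) in splicing factor genes and 2.10 (0.963 to 3.94) in all genes with a peak, and its part in the share was not tested.

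Most splicing factor genes held few peaks. A single peak was found in 24 of the 43 (55.8%), against 41.2% of all genes with a peak. At least 3 summits were found in 12 of the 76 splicing factor genes (15.8%), where the share of all protein-coding genes was 12.4%, and at least 5 in 6 genes (7.89%), where it was 6.01%. Both shares were near the background. The 6 genes were Hnrnpul1 with 10 peaks, Srrm1 with 8, Srrm2 and Snrnp70 with 6 each, and Sf3a1 and Snrpa with 5 each, and they held 40 of the 98 peaks.

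The fold enrichment at the highest peak of a gene had a median of 6.76 (interquartile range 4.31 to 9.92) over the 43 genes, against 6.62 (5.08 to 9.06) over all 6560 genes with a peak. By family, the median was 10.1 in SF3 genes (3.47 to 17.1), 8.14 in SRRM genes (4.87 to 13.2), 7.77 in snRNP genes (3.85 to 10.9) and 7.54 in PRPF genes (4.81 to 11.6). It was 4.92 in hnRNP genes (1.88 to 12.6) and 4.74 in SR genes (2.90 to 15). The ranges of all families overlapped. A highest peak is taken over more peaks in some families, with a median of 6 per gene with a peak in SRRM genes and 1 in SR genes. When each gene was given the median of its peaks, the family values were 8.38 for SF3, 6.08 for PRPF, 5.25 for SRRM, 4.98 for snRNP, 4.74 for SR and 4.55 for hnRNP genes. A highest peak of at least 10-fold was found in 11 of the 76 splicing factor genes (14.5%, 8.28 to 24.1%), 4 of them SF3 genes. The share of all protein-coding genes was 6.07%. Both shares also count genes without any peak in the total. Among genes with a peak, the counts were 11 of 43 and 1255 of 6560.

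**Figure D2:**
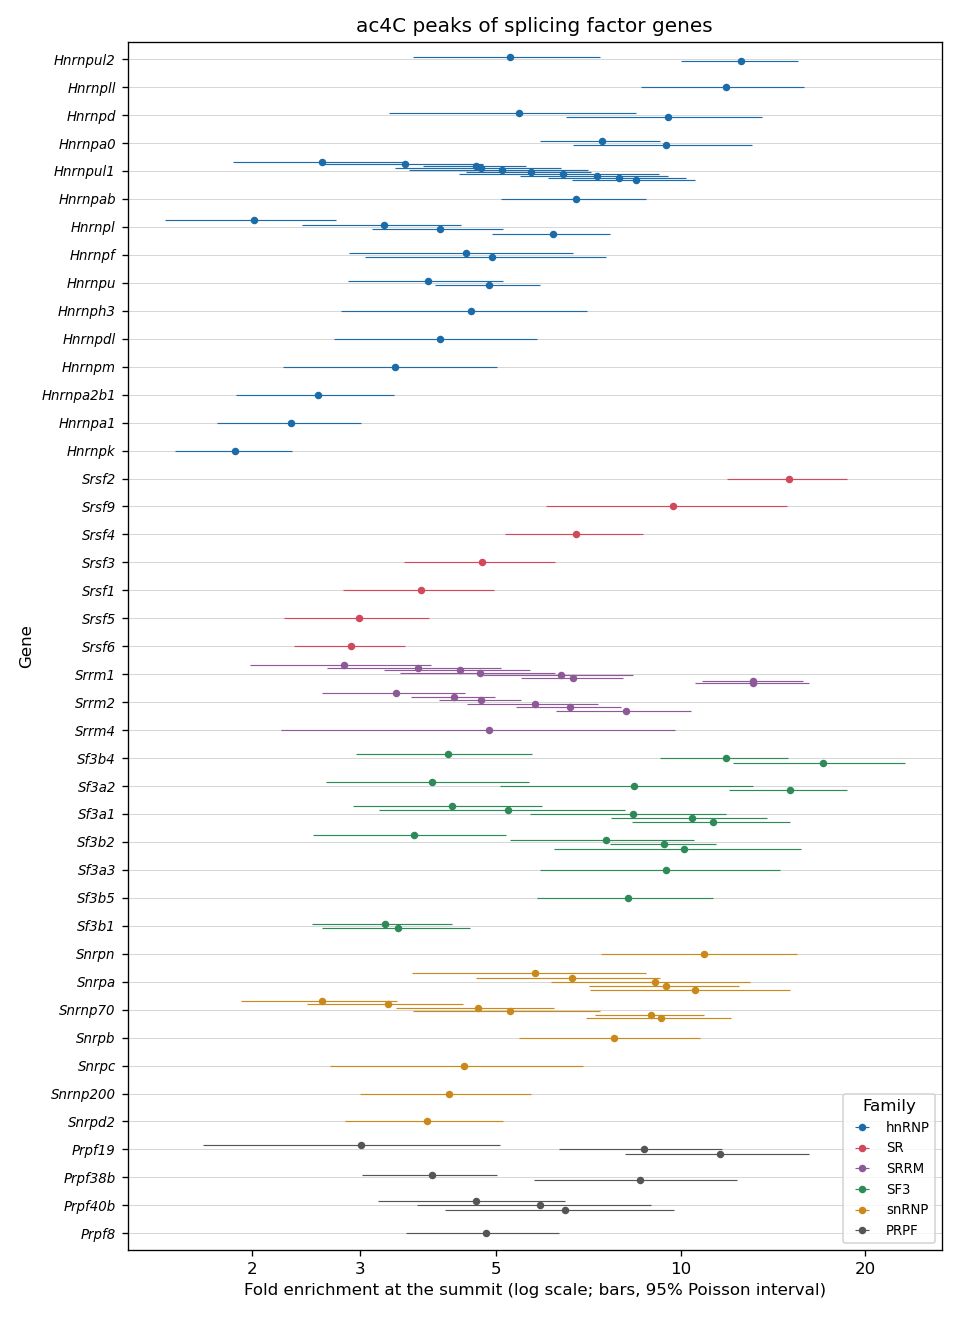
Fold enrichment at the summit of each of the 98 peaks (log axis), by gene and coloured by family, with bars for the exact 95% Poisson interval. Within each family genes are ordered by their highest peak; the points run from 1.88 in Hnrnpk to 17.1 in Sf3b4, and Hnrnpul1 and Srrm1 hold the most points.

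The SF3 proteins form the part of the U2 snRNP that grips the intron branch point. All 3 genes of SF3A held a peak (interval of the share 43.9 to 100%), and so did 4 of the 6 SF3B genes among the 76 (66.7%). The SF3A interval lay above the 31.7% of all genes, whereas the SF3B interval, which reached up to 90.3%, included it. Phf5a, an SF3B gene outside the choice by symbol, held no peak. Sf3b4, an RNA-binding subunit, had 3 peaks, with the highest fold enrichment among all 76 genes, 17.1 (95% interval 12.2 to 23.2), on 38 fragments over a background of 1.29 at chr3:96176469-96177114. Its other peaks stood at 11.9 (9.25 to 15) on 68 fragments and at 4.17 (2.95 to 5.73) on 36 fragments. The interval of the weakest of the 3 lay below those of the other peaks, which overlapped each other.

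Sf3a2, a zinc finger subunit, reached 15.1 (12 to 18.7) on 80 fragments over a background of 4.38, in a peak of 1514 bp at chr10:80803290-80804803. Its other peaks stood at 8.38 (5.08 to 13.1) and 3.93 (2.64 to 5.65). Sf3a1 had 5 peaks from 4.23 to 11.3, of which 4 lay together, 16138 to 18858 bp after the start. Sf3b2, the partner of Sf3b4, had 4 peaks from 3.67 to 10.1, the highest of them 238 bp after a listed start. Sf3a3 held 1 peak at 9.47 (5.89 to 14.5), and the short gene Sf3b5, of 0.734 kb, held 1 at 8.22 (5.82 to 11.3).

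Sf3b1, the large clamp around the branch point helix, stood apart from these with peaks at 3.29 (2.50 to 4.24) and 3.47 (2.60 to 4.53), on 57 and 51 fragments over backgrounds of 16.6 and 14. Its highest interval lay below those of the highest peaks of the other 6 SF3 genes with a peak. Sf3b3 and Sf3b6, the subunit that touches the branch adenosine, held no peak.

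The snRNP genes are described by particle, a grouping made after their values were seen. All 3 genes of proteins specific to U1 held peaks (95% interval of the share 43.9 to 100%, against 31.7% of all genes), 12 in all. Snrpa, the A protein of U1, had 5 peaks from 5.79 to 10.5 in a span of 9.27 kb, or 5.40 per 10 kb. The highest, 10.5 (7.13 to 15.1) on 28 fragments, was the one that reached to its start, and the intervals of its 5 peaks all overlapped. Snrnp70, the U1-70K protein, had 6 peaks from 2.60 to 9.29. The strongest, 9.29 (7.0 to 12.1) on 53 fragments and 8.94 (7.24 to 10.9) on 94 fragments, lay near opposite ends of the gene, 911 and 18954 bp after the start. The 4 peaks between them stood at 2.60 to 5.28. Snrpc, the C protein of U1, had 1 peak at 4.43 (2.68 to 6.94).

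The Sm proteins form the ring around the snRNAs of all these particles except U6. Of the 7 ring genes, only Snrpb, at 7.77 (5.45 to 10.8) on 34 fragments, and Snrpd2, at 3.85 (2.83 to 5.13) on 45 fragments, held a peak (28.6%, 8.22 to 64.1%). Snrpd1, Snrpd3, Snrpe, Snrpf and Snrpg held none. The U2 genes Snrpa1 and Snrpb2 held no peak either, nor did the 3 genes of the U11/U12 particle of the minor spliceosome, Snrnp25, Snrnp35 and Snrnp48. The intervals of these shares, up to 65.8% for the U2 pair and 56.1% for U11/U12, overlapped that of U1 and included the 31.7% of all genes. No enrichment was detected within the spans of these genes at this depth. A peak of 8.55 lay 1064 bp outside the span of Snrnp25, in Rhbdf1, and was not counted. Sm ring genes had a median span of 7.36 kb and U1 genes one of 11.9 kb.

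Snrpn, which encodes a relative of the SmB protein and lies in an imprinted region, had 1 peak at 10.9 (7.42 to 15.5) on 29 fragments, at chr7:60155560-60156024. The summit lay 294330 bp into a listed span of 467.7 kb, and the long non-coding RNA gene Snhg14 and the transcribed pseudogene Gm7367 cover the same place. The list gives no strand, so the source of this peak cannot be told apart. With summits that lie in a gene of another kind left out, 6 of 19 snRNP genes (31.6%) held a peak, against 30.5% of all genes.

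Genes of the U4/U6 and U5 particles held 2 peaks, in 0 of 4 (0 to 49.0%) and 2 of 4 genes (50%, 15 to 85.0%), and both intervals included the 31.7% of all genes. None was found in Prpf3, Prpf4, Prpf31 or Snrnp27, whose proteins belong to the U4/U6 particle or its union with U5. Of these 4 U5 genes, Prpf8, the scaffold of the catalytic centre, held a peak at 4.81 (3.57 to 6.34) on 48 fragments. Snrnp200, the helicase that unwinds U4 from U6, held 1 at 4.19 (2.99 to 5.71) on 38 fragments. Prpf6 and Snrnp40 held none. Eftud2 and Ddx23, U5 genes outside the choice by symbol, also held peaks, the highest at 5.09 and 4.74.

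Among the other PRPF genes, Prpf19, the ubiquitin ligase at the centre of the complex named after it, had 3 peaks. They stood at 11.6 (8.11 to 16.2), 8.71 (6.33 to 11.7) and 3.0 (1.66 to 5.08), in order along the gene, and the third interval lay below the other 2. Prpf38b had a peak of 8.59 (5.77 to 12.4) 222 bp after its start and a peak of 3.92 (3.02 to 5.01) farther on, with more fragments at the lower one, 62 against 27, over a background of 15.1 against 2.26. Prpf40b, a relative of a yeast U1 protein, had 3 peaks from 4.63 to 6.49 whose intervals overlapped. No peak was found in Prpf18, Prpf38a, Prpf39 or Prpf4b.

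In the hnRNP family, 15 of 20 genes held a peak, with a median of 4.92 at the highest one. Among peaks with −log10 q of 10 or more, 8 of 20 genes (40%) held one, against 18.3% of all genes, and the median was 8.96. In the A, B and D group, 6 of 7 genes held a peak (85.7%, 48.7 to 97.4%), against 31.7% of all genes. Hnrnpd, which binds AU-rich mRNA, reached 9.54 (6.49 to 13.6) on 29 fragments, and the intronless gene Hnrnpa0 reached 9.47 (6.68 to 13.1) on 35. Hnrnpab stood at 6.75 (5.09 to 8.79) and Hnrnpdl at 4.05 (2.72 to 5.83). The splicing repressor Hnrnpa1 stood at 2.31 (1.75 to 3.01) on 54 fragments over a background of 22.8, and Hnrnpa2b1 at 2.56 (1.88 to 3.40) on 45 fragments over 17. The last 2 intervals lay below those of Hnrnpd, Hnrnpa0 and Hnrnpab. Hnrnpa3 held no peak.

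All 3 genes of the U group held peaks (interval of the share 43.9 to 100%, against 31.7% of all genes). Hnrnpul1 had 10, more than any other of the 76 genes, spread along its 35.1 kb from 240 to 33310 bp after its start and covering 3.54 kb. Their fold enrichment ran from 2.60 (1.86 to 3.54) to 8.45 (6.66 to 10.6), the latter at the start. Hnrnpul2 had 2 peaks, at 12.6 (10.03 to 15.5) on 83 fragments and 5.28 (3.66 to 7.38) on 32, and the first is the highest among the hnRNP genes. Hnrnpu, an abundant nuclear scaffold protein, had 2 peaks at 4.87 (3.98 to 5.91) and 3.88 (2.87 to 5.13), on 102 and 47 fragments.

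Both genes of the L group, which bind CA-rich RNA, held peaks. With so few genes the interval of this share was wide, 34.2 to 100%, and began just above the 31.7% of all genes. Hnrnpll had 1 at 11.9 (8.62 to 15.9) on 42 fragments over a background of 2.63. Hnrnpl had 4, at 6.19 (4.93 to 7.67), 2.01 (1.44 to 2.74), 3.29 (2.41 to 4.39) and 4.04 (3.14 to 5.14) in order along the gene, over backgrounds of 12.3 to 18.4. Each of these intervals lay below that of Hnrnpll.

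Of the remaining hnRNP genes, Hnrnpf, which binds runs of G, had 2 peaks at 4.92 and 4.47, the first at a place that it shares with the protein-coding gene 4933440N22Rik. Hnrnph3 stood at 4.55 (2.79 to 7.05) and Hnrnpm at 3.42 (2.24 to 5.03). Hnrnpk, a binder of C-rich RNA, had the lowest fold enrichment of all 98 peaks, 1.88 (1.5 to 2.32), on 83 fragments over the highest background of them, 43.8. No peak was found in Hnrnpc, Hnrnph1, Hnrnpr or Hnrnpa1l2-ps2. How reads shared by close paralogs or processed pseudogenes were placed is not given in the sources used here, so values of the hnRNP A genes are uncertain to that degree.

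Each of the 7 SR genes with a peak held exactly 1. Srsf2, also known as SC35, stood out at 15 (11.9 to 18.7) on 78 fragments over a background of 4.26, in a peak of 1086 bp at chr11:116851977-116853062 that reaches into one of its start windows shown above. Mfsd11 covers the same place, and the peaks have no strand. Srsf9 stood at 9.71 (6.04 to 14.9) on 19 fragments, 199 bp after its start, and Srsf4 at 6.76 (5.17 to 8.68) on 59 fragments, at a place shared with the long non-coding RNA gene Gm12992. Srsf3 stood at 4.74 (3.53 to 6.24), Srsf1 at 3.77 (2.81 to 4.96), Srsf5 at 2.99 (2.25 to 3.89) and Srsf6 at 2.90 (2.34 to 3.55).

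The interval of Srsf2 lay above those of all the other SR genes but Srsf9. The order from Srsf3 down to Srsf6 was not resolved between neighbours, whose intervals overlapped. Srsf6 had the most fragments of the SR genes, 92, over the highest background, 31.1. Srsf7, Srsf10, Srsf11 and Srsf12 held no peak. Peaks of 3 of the 7 genes (Srsf1, Srsf2 and Srsf4) were wider than 631 bp, 2 times the median width of the list, where 19.5% of all genes with a peak had so wide a highest peak. With such peaks left out, 4 of the 11 SR genes (36.4%) held a peak, against 29.9% of all genes. Counting only summits in exactly 1 protein-coding gene, which leaves out Srsf2, it was 6 of the 11 (54.5%), against 30.1% of all genes.

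Srrm1 and Srrm2 encode large proteins of nuclear speckles with long stretches of serine and arginine. Srrm1 had 8 peaks, all in the part of the gene from 10588 bp after a start to its end. A pair of neighbours stood out, at 13.2 (10.6 to 16.2) on 87 fragments at chr4:135323983-135324282 and 13.1 (10.8 to 15.8) on 110 fragments at chr4:135324839-135325395. Their intervals lay above those of the other 6 peaks, which ran from 2.83 (1.98 to 3.92) to 6.68 (5.49 to 8.05).

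Srrm2 had 6 peaks of another form. The last 3 were 2175, 3104 and 2368 bp wide and covered 7.65 kb of a gene of 34.2 kb, with only moderate fold enrichments of 4.27 (3.64 to 4.97), 4.72 (4.03 to 5.50) and 6.59 (5.38 to 8.0). They rested on 162, 165 and 101 fragments, and the first 2 had the highest fragment numbers of the 98 peaks. The highest fold enrichment, 8.14 (6.27 to 10.4) on 62 fragments, was at a peak of 432 bp before them. A further peak, at 2.74 and 199 bp past the end of the listed span, lay in Elob and was not counted.

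Srrm3 and Srrm4 act mainly in neurons. Srrm3 held no peak. Srrm4 had 1 at 4.87 (2.23 to 9.78) on 6 fragments, the fewest of the 98 peaks, at a place shared with the long non-coding RNA gene Srrm4os. The list gives no strand to tell them apart.

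Across the 98 peaks fold enrichment was lower where the background was higher. Spearman's rho was -0.65, against -0.47 over all 21192 peaks. This is a description only, since fold enrichment is a ratio over that same background and the list keeps weaker ratios where fragments are many. Highest peaks were then grouped by background, a grouping chosen after the values were seen. In each class below 8 fragments the median of splicing factor genes was above that of all genes. In each class from 8 fragments up it was below. The classes held only 6 to 11 splicing factor genes each, and these differences were not tested. Below 2 fragments, 7 of 8 lay above the median of all genes in the class (7.18), and their own median was 10.3. From 2 to 4 fragments it was 7 of 11, with medians of 8.22 and 6.89, and from 4 to 8 fragments 9 of 11, with 8.45 and 5.76.

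From 8 to 16 fragments 3 of 7 genes lay above the class median, with medians of 4.19 and 4.39, and from 16 fragments up it was 1 of 6, with 2.73 and 3.60. The gene above the class median there was Hnrnpu, and the others were Hnrnpa1, Hnrnpa2b1, Hnrnpk, Srsf5 and Srsf6. In all, 27 of the 43 stood higher than their class median and 23 higher than the median over all genes with a peak. Of the splicing factor genes with a peak, 14% fell in the class from 16 fragments up, against 2.44% of all genes.

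**Figure D3:**
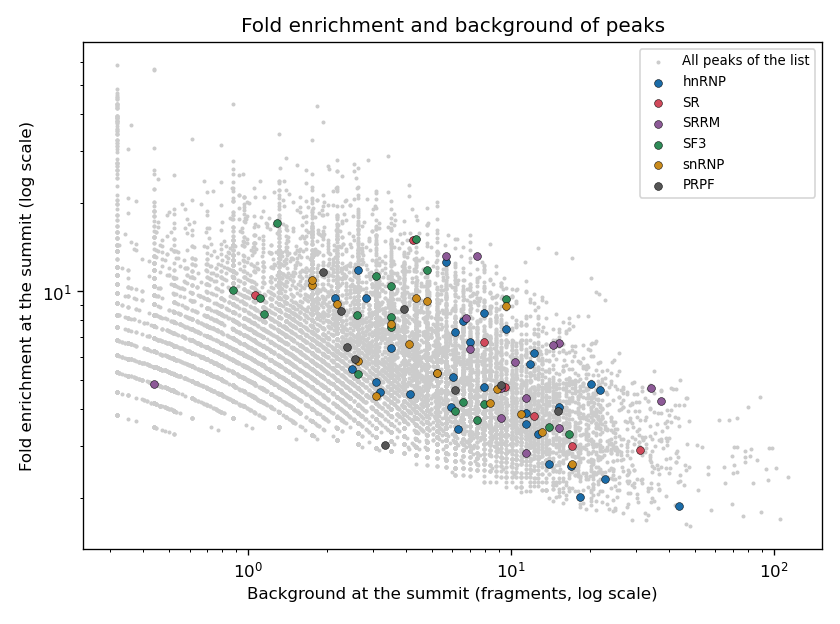
Fold enrichment at the summit against background at the summit in fragments, both on log axes, for all 21192 peaks (grey) and the 98 peaks of splicing factor genes (coloured by family). The coloured points lie mostly at backgrounds above the list median of 2.63 and fall from 17.1 in Sf3b4 to 1.88 in Hnrnpk.

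The place of summits along the gene could be read for 90 peaks of 38 genes, as the start table gave the strand of these genes. Of the 90 summits, 20% (95% interval 13 to 29.4%) lay in the first of 5 equal parts of the gene span and 27.8% (19.6 to 37.8%) in the last. These intervals treat summits as independent, although several can lie in 1 gene. The 3 SRRM genes with a peak held 7 of the 25 summits in the last part. Over 15871 summits of all protein-coding genes with a strand the shares were 16% and 39.1%. Counting only the highest peak of each gene, the shares in the 38 splicing factor genes were 31.6% (19.1 to 47.5%) and 18.4% (9.22 to 33.4%). In 5223 genes of all kinds they were 23.1% and 36.0%. The interval of the first part included the share of all genes, and that of the last part lay below it. Spans include introns, so these are not positions in the mRNA.

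**Figure D4:**
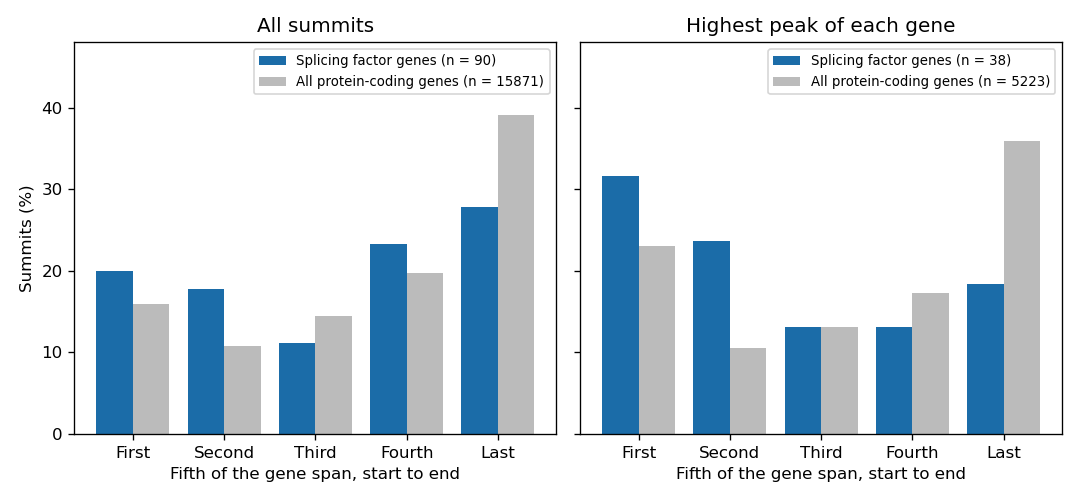
Percent of summits in each of 5 equal parts of the gene span from start to end, for splicing factor genes (blue) and all protein-coding genes (grey), over all summits on the left and over the highest peak of each gene on the right. For all genes the last part has the tallest bar in both panels; for splicing factor genes the last part is tallest on the left (27.8%) and the first part on the right (31.6%).

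Of 14 summits of splicing factor genes close after a listed start, 9 lay in hnRNP genes. A summit within 600 bp after a start, a distance set after the values were seen, was found in 13 of 38 splicing factor genes with a strand (34.2%). The share of all such genes was 25.6%, and the difference was not tested. Of the 13, 8 were hnRNP genes (Hnrnpa0, Hnrnpab, Hnrnpd, Hnrnpdl, Hnrnpf, Hnrnph3, Hnrnpu and Hnrnpul1), out of 13 with a peak and a strand. The other 5 were Srsf9, Sf3b2, Snrpa, Prpf19 and Prpf38b. The farthest summits counted were those of Hnrnph3, Hnrnpd and Hnrnpu, at 506, 513 and 570 bp. The next one, in Srsf2, lay at 855 bp, so the count of hnRNP genes depends on the distance set. As a share of summits, those within 600 bp were 31.0% of 29 in hnRNP genes, 15.6% of 90 in all splicing factor genes and 8.62% of 15871 in all genes. The median span of hnRNP genes, 13 kb, was below the 17.5 kb of all genes, and the part of gene length in this share was not tested.

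Base content of the start windows differed little among splicing factor genes with and without peaks. In the 50 bases after the start, the median share of C was 28% in the 13 genes with a summit close after a start, 30% in 25 genes with other peaks and 30% in 29 genes without a peak. Over all genes it was 30% in both classes with a peak and 26% in genes without one. The GC content of the whole window had medians of 63.3%, 60% and 58% in the 3 classes of splicing factor genes, with overlapping interquartile ranges, and 64%, 62% and 53.3% in those of all genes.

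Other genes of splicing were set beside these as 7 lists of 73 genes, chosen with earlier results of these data known and so no independent support. A peak was held by 42 of the 73 (57.5%, 46.1 to 68.2%), against 31.7% of all genes, with a median of 5.69 at the highest peak. Over all protein-coding genes, the median span was 26.5 kb with a peak and 14.5 kb without. The part of gene length in the shares of these lists was not tested. Regulators of alternative splicing had a peak in 18 of 19 genes, all but Celf1, with Rbfox2 at 13.4 (9.15 to 18.9), Tial1 at 10.8 (7.08 to 15.9) and Khsrp at 9.60 (5.81 to 15) highest. Among SR-like coactivators it was 6 of 12, led by Acin1 at 12.6 (10.7 to 14.8) on 154 fragments, Luc7l2 at 7.29 and Luc7l at 5.40.

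Helicases, the U5 GTPase and exon junction genes had a peak in 8 of 11, led by Dhx16 at 7.81, Dhx38 at 6.74 and Ddx39b at 6.72. For the branch point and 3′ splice site it was 4 of 7, led by Sf1, the branch point binding protein, at 9.34 (7.82 to 11.1) on 131 fragments, followed by U2af2 at 8.35 and U2af1l4 at 5.79. Kinases of SR proteins held a peak in 3 of 6, Clk3 at 7.84, Clk2 at 7.38 and Srpk1 at 3.99.

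Partners of Prpf19 and the Lsm ring, which binds U6 snRNA, had the lowest shares of the 7 lists. Peaks were found in 2 of 11 genes listed as Prpf19 partners (18.2%, 5.14 to 47.7%), Ctnnbl1 at 6.07 and Xab2 at 4.00. In the Lsm ring it was 1 of 7 genes, Lsm4 at 4.44 (2.76 to 6.81). The Lsm ring, with 14.3% (2.57 to 51.3%), and the Sm ring, with 28.6% (8.22 to 64.1%), are related protein families. The intervals of both rings and of the Prpf19 partners included the 31.7% of all genes.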

How the data were processed

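Both libraries were grouped by their titles. HISAT2 2.2.1, MACS3 3.0.0a7 and the build mm10, which is GRCm38, are named in the submitters' processing notes without their roles, and filters are not given in the sources used here. The deposited peak list in narrowPeak layout held the authors' fold enrichment (a ratio), −log10 p-value, −log10 q-value and score of each peak and no strand. The largest q was 0.0499. Replicates were not pooled, as there was 1 library per group.

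A peak belonged to a gene when its summit lay in the gene's RefSeq span, introns included. Peaks in more than 1 gene counted for each. Fragments and background at each summit were recovered as the whole number matching the authors' fold enrichment (pseudocount 1) and p-value to a relative tolerance of 1e-05. This gave exactly 1 number in 21192 of 21192 peaks, with a median of 22 fragments, and was tested on simulated data (100% of 2000 returned). Intervals of fold enrichment are 95% exact Poisson intervals of the fragments with the background taken as known. They cover counting error only, and PCR copies could not be told from separate molecules. Calculations used Python 3.11.15, scipy 1.17.1 and pandas 2.3.3.

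Genes and lists were chosen with earlier results of these data known. All 76 genes entered the counts, and 1 of them is not reported here by name. By rule the text names, per family, the 4 genes with the highest peaks, the 3 with most peaks, those without a peak (except that gene) and those sharing a summit with another gene, and of other lists the 3 highest. Other genes of the 76 were named to complete their families. Eftud2, Ddx23 and Phf5a of the other lists were named because they belong to the same particles. Alternatives changed the peak threshold, width, fragment minimum and the way peaks were tied to genes. Exon positions and genome letters beyond the start windows were not used here.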

Additional observations from a re-analysis of the deposited data

How the results depend on the processing

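Of 124 values of counts, shares, medians and positions under alternatives, 112 stayed within their interval, or within 1.5 times for counts. For families with few genes, such as SRRM and PRPF, the interval of the median was its whole range, which alternatives could hardly leave. Any overlap of peak and span gave the same 43 genes and 98 peaks as the summit rule, so that alternative could not move these counts. Among peaks with −log10 q at or over 10, the share of splicing factor genes with a peak was 43.4%, against 18.3% of all genes, and 8 hnRNP genes held a peak. With peaks below the median fold enrichment of the list left out, 25 genes held a peak (32.9%, against 21.2% of all genes) and they held 48 peaks, with 7 hnRNP, 3 SR and 4 snRNP genes and a median of 9.54, against 8.0 over all genes. Both filters lower counts by construction. With peaks of at most 631 bp, 4 of 11 SR genes held a peak (36.4%, against 29.9% of all genes). Of 302 values of single genes, 13 moved out of their interval. The 302 count only genes that kept a peak under the alternative. These were 33 of the 43 genes at −log10 q at or over 10, and 25 at or over the median fold enrichment. A filter leaves the highest peak of such a gene as it was unless it removes that very peak, so many of these values had little room to move. With that width limit Sf3a2 stood at 3.93, Hnrnpul2 at 5.28, Hnrnpd at 5.45, Hnrnpu at 3.88 and Sf3b4 at 11.9. When each gene was given the median of its peaks, Srrm1 stood at 5.54, Srrm2 at 5.25, Hnrnpul1 at 5.40, Snrnp70 at 4.98 and Hnrnpl at 3.67, and Sf3b4, Sf3a2 and Hnrnpul2 at 11.9, 8.38 and 8.92. The highest peak alone put 31.6% of summits in the first of 5 equal parts of the gene and 18.4% in the last, and the cause was not tested. The share over genes of middle length (52.6%), the grouping by background, the particles and the distance of 600 bp were added after the data were seen. No paired analysis was possible because each group had 1 library. Genes without a peak have no value in the list, so what depth hides in them was not measured.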
